A study of Mus musculus with 9 samples.

Results

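The noncoding RNA genes described here are the 208 of 5301 listed genes whose Ensembl identifier carries a noncoding type in GENCODE M21, a mouse gene annotation. They were chosen by that type, and 185 are long and 23 are small RNA genes. The long genes comprise 52 lincRNA (intergenic), 46 processed_transcript (spliced, without a reading frame), 39 antisense, 38 TEC (a provisional class, usually a single unspliced stretch), 8 bidirectional_promoter_lncRNA, 1 sense_intronic and 1 sense_overlapping gene. The small genes comprise 15 snoRNA, 2 scaRNA, 3 misc_RNA, 2 ribozyme and 1 snRNA gene. A further 43 listed genes are not in GENCODE M21, so their type was not known here and they were left out.

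The cells were 6DT1, a mouse mammary cancer line derived from an FVB/NJ tumor driven by an MMTV-Myc transgene. All groups carried a lentiviral short hairpin RNA and were kept in 10 ug/ml puromycin. The scramble control (shControl) was compared with hairpins H4 (shH4) and H6 (shH6), both directed at Resf1, with 3 libraries of total RNA in each group, collected 24 hours after seeding. The 3 libraries of a group were dishes of 1 transduced line, so the hairpin and the line that carries it cannot be told apart, and p-values measure only the spread between dishes. The comparisons ask how noncoding transcripts differed after RESF1 depletion.

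Small nucleolar RNAs (snoRNAs) guide the chemical modification of ribosomal RNA: those of the C/D class guide methylation, and those of the H/ACA class guide the conversion of uridine to pseudouridine. Small Cajal body RNAs (scaRNAs) do the same for the RNAs of the spliceosome. Most are cut from introns of a host transcript, which may encode a protein or, as in the small nucleolar RNA host genes (Snhg), have no other known product, and many spliced Snhg transcripts are short-lived because nonsense-mediated decay degrades them. Other noncoding RNAs work as whole transcripts, such as MALAT1 and NEAT1 in nuclear speckles and paraspeckles.

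The shControl libraries held 1591, 1553 and 1610.0 normalized counts of Resf1 itself. The shH4 libraries held 976, 953 and 1016, and the shH6 libraries 1120.0, 1113 and 1130.2. Normalized counts are reads divided by a factor for each library. The groups did not overlap, and the level fell by 38.1% in shH4 and by 29.3% in shH6. The listed genes of a library held an estimated 10.47 M to 19.88 M reads, with the fewest in shH6 replicate 3. The epithelial keratin genes Krt8 and Krt18 were listed, 2 of 11 epithelial markers, with summed levels of 26585 to 28995 in shControl, while shH4 had 22386 to 23863 and shH6 24795 to 27873. Of the markers of other cells, Cd68 (myeloid, 1 of 6 listed) was at 608 to 668 in shControl, and shH4 had 197 to 245 and shH6 191 to 234. Pecam1 and Cdh5 (endothelial, 2 of 3 listed) summed to 20.2 to 30.7 in shControl, with 173 to 208 in shH4 and 26.01 to 31.2 in shH6, and Pdgfra (fibroblast, 1 of 6 listed) was at 69.7 to 107.9, 119 to 162 and 128 to 157 in the same order. Whether these markers have a part in the noncoding differences was not tested.

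The table of listed genes is itself a selection. All 5301 listed genes lay on the same side of shControl in both hairpins, and each passed limma's test of the mean of the hairpins (adjusted p under 0.05), so each noncoding gene below was present because it differed from shControl. Counts of genes that passed the threshold against shControl therefore carry no information on the noncoding genes, and the directions and sizes are what could vary, and within limits the difference between the hairpins. In shH4, 198 of the 208 noncoding genes passed (background 95.7%), and in shH6 195 passed (background 96.1%). For the mean of both hairpins all 208 passed (background 100%), 95 higher and 113 lower. All 6 knockdown libraries lay on one side of the shControl libraries for 170 of the 208 (background 86.4%).

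The small RNAs that carry the clearest pattern are shown first, as GENCODE M21 transcripts on the GRCm38 genome, from the start to the end of each RNA. Capitals mark an ACA trinucleotide within the last 8 bases, as in H/ACA RNAs, or TGATGA within the first 20 and CTGA within the last 20 bases, as in C/D RNAs. Snora73a, Snora73b and Gm26448 are shown because they are close relatives that lie in 2 loci, Gm25791 because it had the largest difference of the small RNAs, Gm26447 and Gm25835 as an abundant H/ACA and a C/D example, and Gm22973 because it alone was higher.
Snora73a: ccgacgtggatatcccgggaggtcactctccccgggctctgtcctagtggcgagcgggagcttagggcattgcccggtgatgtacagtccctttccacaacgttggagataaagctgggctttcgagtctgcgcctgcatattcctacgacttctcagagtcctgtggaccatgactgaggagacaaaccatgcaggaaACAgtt
Snora73b: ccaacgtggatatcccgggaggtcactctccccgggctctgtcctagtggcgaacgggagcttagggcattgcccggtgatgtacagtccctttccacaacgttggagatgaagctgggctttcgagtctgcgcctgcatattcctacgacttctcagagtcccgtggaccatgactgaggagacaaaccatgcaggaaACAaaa
Gm26448: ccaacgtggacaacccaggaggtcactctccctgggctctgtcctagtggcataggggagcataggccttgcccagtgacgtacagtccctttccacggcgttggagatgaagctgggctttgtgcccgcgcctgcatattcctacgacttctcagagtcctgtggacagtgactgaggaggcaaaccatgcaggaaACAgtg
Gm26447: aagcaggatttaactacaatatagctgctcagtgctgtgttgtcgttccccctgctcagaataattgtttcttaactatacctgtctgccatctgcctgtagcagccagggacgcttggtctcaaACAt
Gm25791: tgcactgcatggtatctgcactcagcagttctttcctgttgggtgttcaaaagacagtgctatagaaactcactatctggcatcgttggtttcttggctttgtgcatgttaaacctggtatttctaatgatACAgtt
Gm25835: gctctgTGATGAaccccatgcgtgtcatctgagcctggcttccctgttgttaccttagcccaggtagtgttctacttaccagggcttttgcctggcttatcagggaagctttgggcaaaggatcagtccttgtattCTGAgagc
Gm22973: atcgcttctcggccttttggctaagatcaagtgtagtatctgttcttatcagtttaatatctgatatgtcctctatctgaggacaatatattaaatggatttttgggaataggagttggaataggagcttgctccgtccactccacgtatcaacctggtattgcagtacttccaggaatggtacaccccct
Snora73a and Snora73b are identical at 96.6% of aligned positions, and Gm26448 matches them at 88.3% and 87.8%. Reads from these relatives may have been divided between them in the counting, so their separate levels are uncertain.

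Of the 17 snoRNA and scaRNA genes, 12 held the ACA letters, 3 held the C and D letters and 2 held neither. Among all 1558 snoRNA and scaRNA genes of GENCODE M21 the first 2 shares were 46.7% and 20.3%. The 17 had a median length of 168 bases, from 128 to 414, against a median of 128 over the 1558. No sequence from the genes on chromosome 18 is shown.

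The direction was counted by gene type. Of the 23 small RNA genes, 22 were lower in both hairpins than in shControl and 1 was higher (background 48.8% lower), with a median log2 fold change of -0.34 in shH4 and -0.36 in shH6. Log2 fold changes are differences of mean log2(normalized count + 1) throughout, which understates the change of genes with few reads. All 15 snoRNA, both scaRNA, all 3 misc_RNA and both ribozyme genes were lower. Of the 185 long genes, 94 were higher and 91 lower, with medians of 0.13 and 0.10, beside medians of 0.10 and 0.09 over all 5301 genes. The types of long gene went different ways. TEC genes were higher in 27 of 38, with medians of 0.43 and 0.53, whereas bidirectional_promoter_lncRNA genes were lower in 6 of 8, with medians of -0.50 and -0.53. In shControl 30 of the 38 and 6 of the 8 lay below 100 normalized counts. The summed level of the 38 TEC genes was not higher, at 8786 to 9167 in shControl, 8390 to 8661 in shH4 and 8704 to 8840 in shH6. LincRNA (25 higher, 27 lower), antisense (18 and 21) and processed_transcript genes (21 and 25) were divided nearly evenly.

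**Figure D1:**
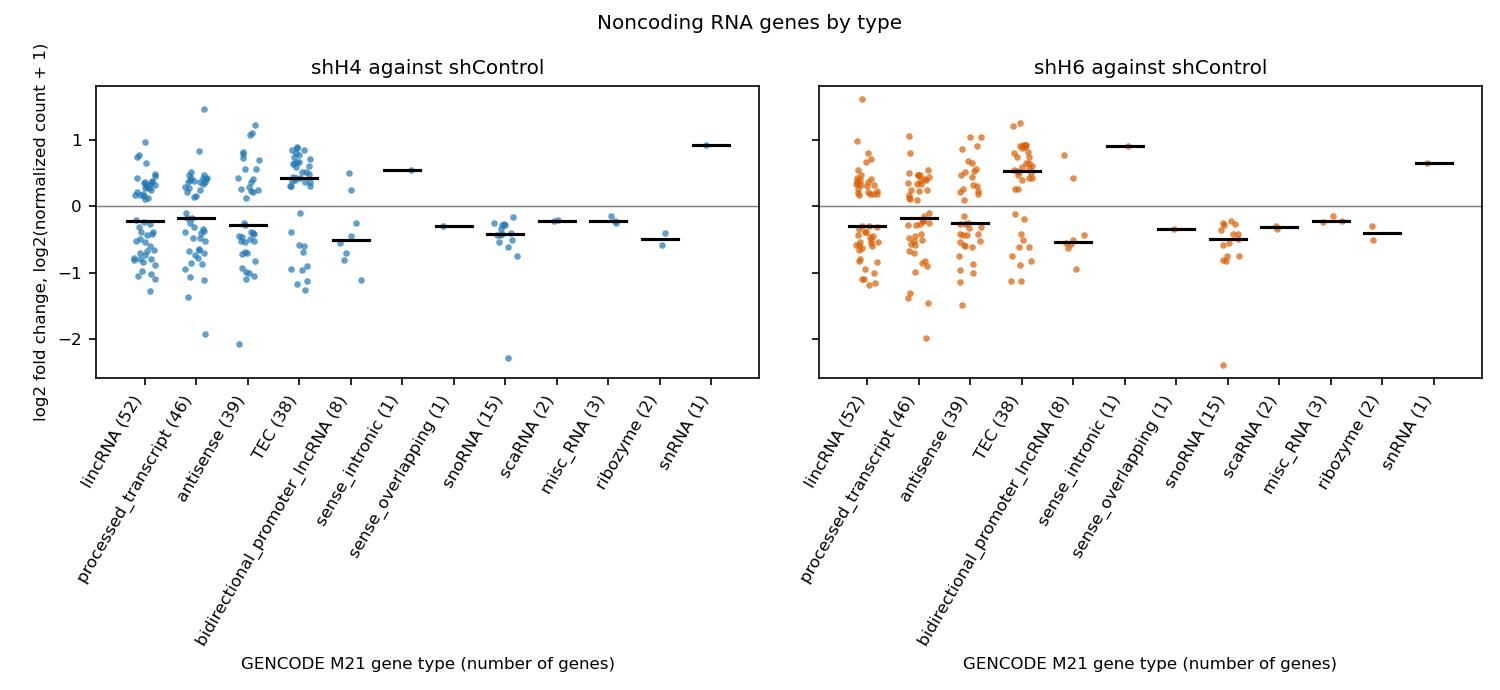
Log2 fold change of each noncoding gene against shControl (vertical axis, on log2(normalized count + 1)) by GENCODE M21 type (horizontal axis, number of genes in brackets), for shH4 on the left and shH6 on the right. Each point is a gene and each black bar the median of its type. The snoRNA points all lie below 0, and 27 of the 38 TEC points lie above it.

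Noncoding genes were less abundant and more variable than the other listed genes. Their median level in shControl was 99.9 normalized counts, against 923 over all listed genes, and 104 of 208 lay below 100, against 8.68% of all listed genes. The median coefficient of variation between the shControl libraries was 8.93% for noncoding genes and 3.97% over all genes. The median size of the fold change, in either direction, was 1.39 in shH4 and 1.42 in shH6, against 1.20 and 1.21 over all genes. Among all listed genes below 100 normalized counts the median size was 1.76 and 1.73, and among the 99 long noncoding genes below 100 it was 1.63 and 1.59. Per kilobase of exon, the highest shControl levels were those of Rpph1 (250900 normalized counts per kilobase), Rn7s6 (65045) and Gm24514 (53685), all small RNAs, and the highest among long genes were those of Gm10076 (25092) and Malat1 (18210).

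The 22 lower small RNAs together took a smaller share of the normalized counts of the listed genes. With Gm22973 included, small RNA genes made up 1.08% to 1.21% of the summed normalized counts in the shControl libraries, 0.890% to 1.01% in shH4 and 0.922% to 0.994% in shH6, and the shControl range did not overlap the others. Much of this was 1 gene, Rpph1, with a mean of 68567 over all libraries, where the small RNA genes together held 118320 to 165150. The 17 snoRNA and scaRNA genes alone summed to 27835 to 30532 in shControl, 23639 to 24545 in shH4 and 20364 to 25360 in shH6. In shH4, 20 of the 22 passed the threshold and in shH6 all 22 did (background 95.2% and 96.1% of all listed genes that were lower), so this count lay near the background. For 19 of the 22, all 6 knockdown libraries lay below all 3 shControl libraries (background 87.7% of the listed genes that were lower).

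Snora73a, an H/ACA snoRNA needed for early processing of ribosomal RNA, was at 7953, 8624 and 8938 normalized counts in shControl. It was at 7087, 7161 and 6752 in shH4 and at 7497, 6585 and 5193 in shH6. All knockdown libraries lay below shControl, with the lowest in shH6 replicate 3, and the log2 fold change was -0.28 in shH4 (SE 0.09, limma adjusted p = 0.0063) and -0.42 in shH6 (SE 0.09, adjusted p = 0.000352). Without shH6 replicate 3 the shH6 value was -0.27 (limma adjusted p = 0.000226). Its near copy Snora73b was at 4486, 4798 and 5407 in shControl, 4079, 4152 and 3819 in shH4, and 4442, 3943 and 3154 in shH6. These libraries were in nearly the same order as for Snora73a, and without shH6 replicate 3 the shH6 value of Snora73b moved from -0.36 to -0.22 (limma adjusted p = 0.00421). The third relative, Gm26448, which lies in an intron of the ribosomal protein gene Rpsa, fell from 1377 ± 146 (SD, n = 3) to 1147 ± 22.4 in shH4 and 1176 ± 71.1 in shH6, and without shControl replicate 3 its shH6 log2 value moved from -0.22 to -0.14 (limma adjusted p = 0.0317).

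Gm25791, which lies inside Taf1d, a gene for a subunit of an RNA polymerase I initiation factor, had the largest difference of any small RNA. It was at 32.97, 61.9 and 46.6 normalized counts in shControl, at 15.1, 8.91 and 4.42 in shH4, and at 11.7, 6.84 and 6.09 in shH6. The groups did not overlap, with log2 fold changes of -2.29 (SE 0.38, limma adjusted p = 5.47e-05) and -2.39 (SE 0.38, adjusted p = 3.54e-05). The knockdown levels correspond to few reads, so the size is imprecise. Over the alternative fits described below it ranged from -2.67 to -1.88 in shH4 and from -2.65 to -1.97 in shH6. Taf1d was at 19202 ± 289 in shControl, against 17721 ± 385 in shH4 and 18102 ± 351 in shH6, log2 fold changes of -0.12 and -0.09. The snoRNA shares exon bases with annotated Taf1d transcripts, so its reads and those of Taf1d cannot be fully told apart.

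Gm26447 was at 1037, 1314 and 1276 in shControl, at 956, 875 and 894 in shH4, and at 979.9, 797 and 811 in shH6, and passed in both hairpins (log2 -0.41 and -0.49). Gm25835, a C/D-type snoRNA in an intron of the translation initiation factor gene Eif4a1, was at 187.2, 270.3 and 193.8 in shControl, 160.6, 159.4 and 159.4 in shH4, and 186.7, 172.1 and 129.7 in shH6. The shH6 libraries of Gm25835 reached to just below the lowest shControl library, and the calls in both hairpins (log2 -0.42 and -0.41) rested on shControl replicate 2: without it the values were -0.25 (limma adjusted p = 0.0769) and -0.24 (adjusted p = 0.0874), and without shH6 replicate 3 the shH6 value was -0.26 (adjusted p = 0.0737). Gm22154 (log2 -0.34, adjusted p = 0.12) and Gm23262 (-0.17, adjusted p = 0.073) did not pass in shH4 and passed in shH6 (-0.75 and -0.26). Gm22154 moved to -0.20 in shH4 without shH4 replicate 3 (limma adjusted p = 0.4) and to -0.47 in shH6 without shH6 replicate 3 (adjusted p = 0.0174). Without shH6 replicate 3 both passed in shH4 (limma adjusted p = 0.0426 for Gm22154 and adjusted p = 0.0259 for Gm23262), and Gm23262 did so without shControl replicate 2 as well (-0.21, adjusted p = 0.0496).

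The scaRNAs were lower too. Scarna2 was at 3681, 3699 and 3505 in shControl, at 3097, 3180.5 and 3046 in shH4, and at 3012, 3018 and 2864 in shH6, with no overlap (log2 -0.22 and -0.29). Gm22009, a scaRNA in an intron of the importin gene Kpna4, was at 4511 ± 159 in shControl, against 3906 ± 61.3 in shH4 and 3560 ± 124 in shH6. Scarna10, which GENCODE M21 types as a snoRNA, was at 3593 ± 140 in shControl, against 2991 ± 37.6 in shH4 and 3018 ± 208 in shH6. For each of these 3 RNAs every knockdown library lay below every shControl library.

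The least deeply sequenced library, shH6 replicate 3, held the lowest of the 9 values for 11 of the 17 snoRNA and scaRNA genes. The median over the 17, as log2 against the shControl mean, was -0.59 in that library, -0.27 and -0.37 in shH6 replicates 1 and 2, and -0.28, -0.37 and -0.42 in shH4. Without that library all 17 were still lower in shH6, 13 of them past the threshold in place of 17, with a median of -0.32. Over all 5301 genes 4801 then passed in shH6 in place of 5092. The 4 that then missed it were Gm23262 (-0.15, limma adjusted p = 0.0603), Gm24119 (-0.40, adjusted p = 0.0773), Gm25835 and Snora74a (-0.20, adjusted p = 0.0923).

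RNAs of RNase P and of the signal recognition particle were lower as well. Rpph1, the RNA of RNase P, which trims transfer RNA precursors, was at 81772, 71017 and 87318 normalized counts in shControl. It was at 54553, 70925 and 56565 in shH4 and at 65191, 63223 and 66536 in shH6, so that 1 shH4 library reached to just below the lowest shControl library (log2 -0.40 and -0.30). Rprl3, an RNase P-like gene with 75.8% identity to Rpph1, fell from 829.9 ± 60.4 to 558 ± 93.2 and 583 ± 41.6. The 3 misc_RNA genes Rn7s6, Gm24514 and Gm26461, which resemble the RNA of the signal recognition particle and one another (79.3% to 80.1% identity), had log2 fold changes from -0.25 to -0.15 in shH4 and from -0.24 to -0.15 in shH6. Rn7s6 in shH6 (16926, 15303 and 19086, against 18450 to 19501 in shControl) overlapped shControl. Its call was lost without shControl replicate 3 (log2 -0.13, limma adjusted p = 0.0767), shH6 replicate 1 (-0.15, adjusted p = 0.0507) or shH6 replicate 2 (-0.07, adjusted p = 0.165) and with column-total scaling (-0.11, adjusted p = 0.0926), while without shH6 replicate 3 it was -0.23 (adjusted p = 0.000283), and that of Gm26461 in shH4 without shControl replicate 3 (-0.11, adjusted p = 0.0545).

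Gm22973, the single snRNA gene listed, was the only small RNA that was higher. It was at 13.0, 22.5 and 13.3 normalized counts in shControl, at 34.5, 25.3 and 33.3 in shH4, and at 29.8, 29.4 and 18.7 in shH6. The shH6 range overlapped shControl, and these levels correspond to few reads. Its log2 fold change was 0.92 in shH4 (SE 0.26, limma adjusted p = 0.00424) and 0.66 in shH6 (SE 0.26, adjusted p = 0.026). The shH6 call was lost without shControl replicate 1 or 3 (0.53 and 0.54) and without shH6 replicate 1 or 2 (0.55 and 0.56), with adjusted p from 0.0858 to 0.0976. Its first bases resemble those of the spliceosomal U2 RNA, a family with many gene copies, so the copy from which the reads came is uncertain.

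**Figure D2:**
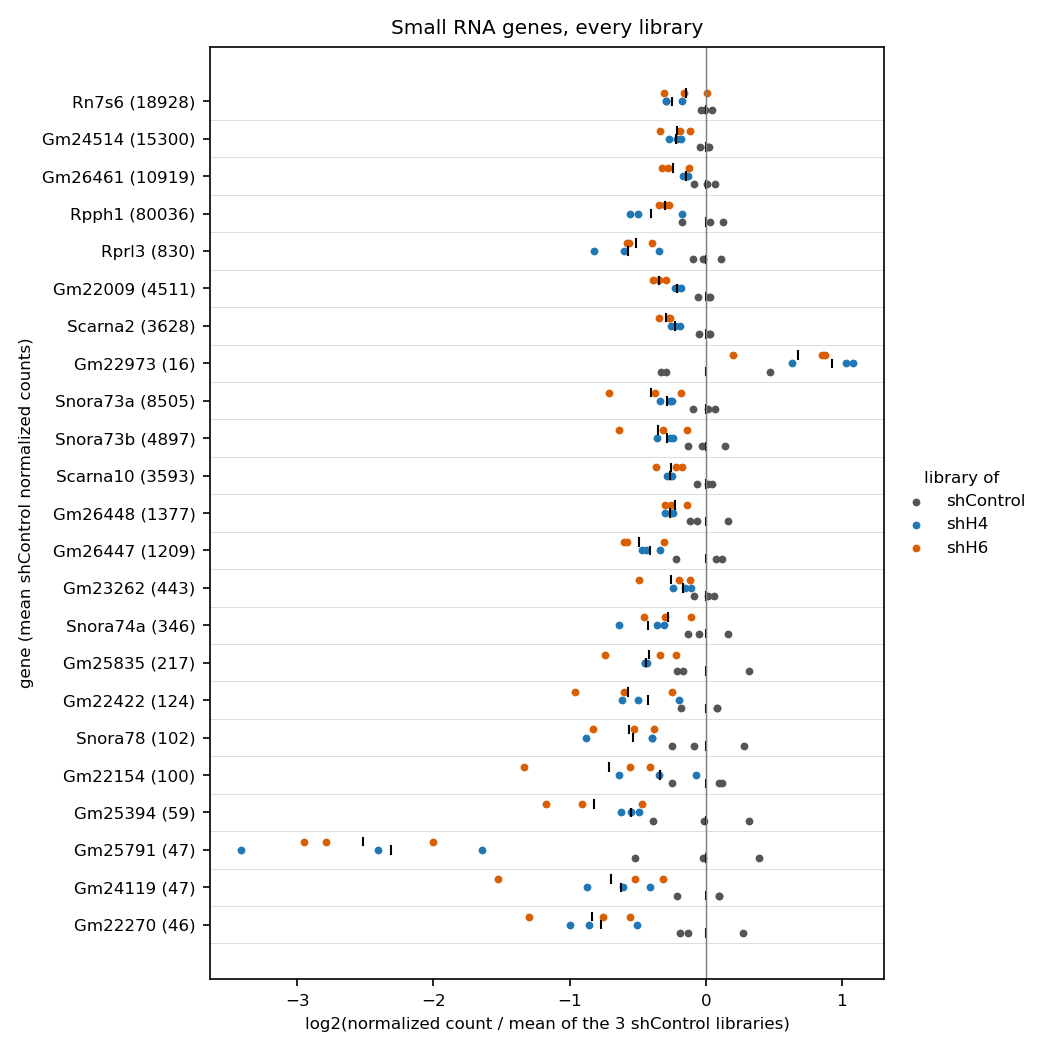
Level of each small RNA gene in every library relative to its shControl mean (horizontal axis, log2 ratio of normalized counts), ordered by type and level, with the mean shControl normalized count in brackets. Points are libraries (grey shControl, blue shH4, orange shH6) and black ticks are group means. Of the 23 genes, 22 lie to the left in both hairpins, Gm25791 farthest, and Gm22973 lies to the right.

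Other short transcripts were counted beside them. Of the 120 listed genes with under 450 exonic bases, 89 were lower, and of the 90 of these that were not noncoding members 63 were lower. Of the protein-coding genes of that length 15 of 19 were higher. Between 450 and 1000 exonic bases, 61 of 106 protein-coding genes and 199 of all 314 listed genes were lower. Whether length, or how short RNAs pass through library preparation, has a part in the lower small RNA levels was not tested.

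Transcripts that host snoRNAs went the other way. The 11 Snhg and other named snoRNA hosts listed comprised 10 that were higher and 1, Snhg14, that was lower (background 51.2% higher), and all 11 passed in both hairpins (background 95.7% and 96.1%). Their median log2 fold changes were 0.36 (shH4) and 0.26 (shH6). Summed over the 11, the shControl libraries held 18033 to 18534 normalized counts, the shH4 libraries 22932 to 24184 and the shH6 libraries 22020 to 23080, without overlap. With Mir17hg, a host of microRNAs, the medians over 12 genes were 0.36 and 0.30. Of all 18 listed noncoding genes with a snoRNA or scaRNA gene inside them, 16 were higher.

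Gas5, which hosts several C/D snoRNAs and is a classic target of nonsense-mediated decay, was at 7834, 7931 and 7763 normalized counts in shControl. It was at 10868, 10205 and 10330 in shH4 and at 10291, 10599 and 10041 in shH6. The groups were far apart relative to their spread, with log2 fold changes of 0.42 (SE 0.03, limma adjusted p = 5.21e-08) and 0.39 (SE 0.03, adjusted p = 9.57e-08). Snhg1 was at 2289, 2481 and 2569 in shControl, 3062, 2919 and 2903 in shH4, and 2901, 2997 and 2842 in shH6. Snhg5 was at 1354, 1522 and 1429.5 in shControl, 1983, 1888 and 1894 in shH4, and 1860, 1921 and 1821 in shH6. In both genes every knockdown library lay above every shControl library.

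Snhg8 (963 ± 33.2 in shControl, 1252 ± 7.59 in shH4, 1126 ± 46.5 in shH6) and Snhg12 (2115 ± 74.1, 2731 ± 111 and 2530.5 ± 176) were higher without overlap. Dancr, a host whose transcript restrains differentiation, was at 403 ± 20.7, 519 ± 31.9 and 559 ± 4.82. Zfas1, which hosts C/D snoRNAs, was higher in both (log2 0.22 in shH4 and 0.10 in shH6), and its shH6 call was lost without shControl replicate 1 (0.08, limma adjusted p = 0.083) or shH6 replicate 1 (0.09, adjusted p = 0.059) and with upper-quartile scaling (0.05, adjusted p = 0.221). Mir17hg, the host of the miR-17-92 cluster of microRNAs and a known MYC target, was at 847 ± 64.5 in shControl, against 1089 ± 64.3 in shH4 and 1129 ± 43.9 in shH6, while Myc mRNA was at 10456 to 12063 in shControl, 8481 to 9249 in shH4 and 8792 to 10350 in shH6.

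The low-abundance hosts were less certain. Snhg3 was at 115, 134 and 108 in shControl, 170.0, 146 and 123 in shH4, and 172, 167 and 155 in shH6. The lowest shH4 library lay within the shControl range, and the shH4 call (log2 0.29, limma adjusted p = 0.0309) was lost without shControl replicate 1 or 3 (0.28 and 0.22) or shH4 replicate 1 or 2 (0.18 and 0.29), with adjusted p from 0.0635 to 0.178. With upper-quartile scaling the calls of Snhg3 in shH4 (0.23, limma adjusted p = 0.0826), Snhg10 in shH6 (0.29, adjusted p = 0.0616) and Epb41l4aos in shH6 (0.19, adjusted p = 0.0531) were lost too. Snhg10 (98.3 ± 17.8, 132 ± 7.93 and 125 ± 19.1) lost its call without shControl replicate 2 in shH4 (0.29, adjusted p = 0.0598) and in shH6 (0.20, adjusted p = 0.174), and in shH6 also without shH6 replicate 1 (0.30, adjusted p = 0.0879) or 2 (0.26, adjusted p = 0.123). Epb41l4aos (257 ± 23.3, 306 ± 14.4 and 303 ± 27.4) lost it without shControl replicate 2 (0.18, adjusted p = 0.0744, and 0.16, adjusted p = 0.0976), shH4 replicate 2 (0.22, adjusted p = 0.0503) or shH6 replicate 3 (0.17, adjusted p = 0.0898). Snhg14, the long imprinted transcript that carries large clusters of C/D snoRNAs, was at 248, 238 and 251 in shControl, 215, 185 and 193 in shH4, and 196, 139.7 and 179.9 in shH6, below shControl throughout (log2 -0.32 and -0.53), and its shH4 call was lost without shH4 replicate 2 (-0.27, adjusted p = 0.0529).

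The next 4 hosts, without an Snhg name, were chosen for mention after their values were seen. 1110038B12Rik rose from 1167 ± 80.8 to 1612 ± 32.1 and 1626 ± 56.0. AC121821.1, which surrounds Snora74a, had log2 fold changes of 0.39 and 0.34. Cct6a is typed as processed_transcript in GENCODE M21 but is a chaperonin gene that RefSeq calls protein-coding, and had 0.16 and 0.11. 2410006H16Rik was the other lower host, at 2339 ± 118 in shControl, against 2077 ± 44.6 in shH4 and 1921 ± 44.2 in shH6.

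**Figure D3:**
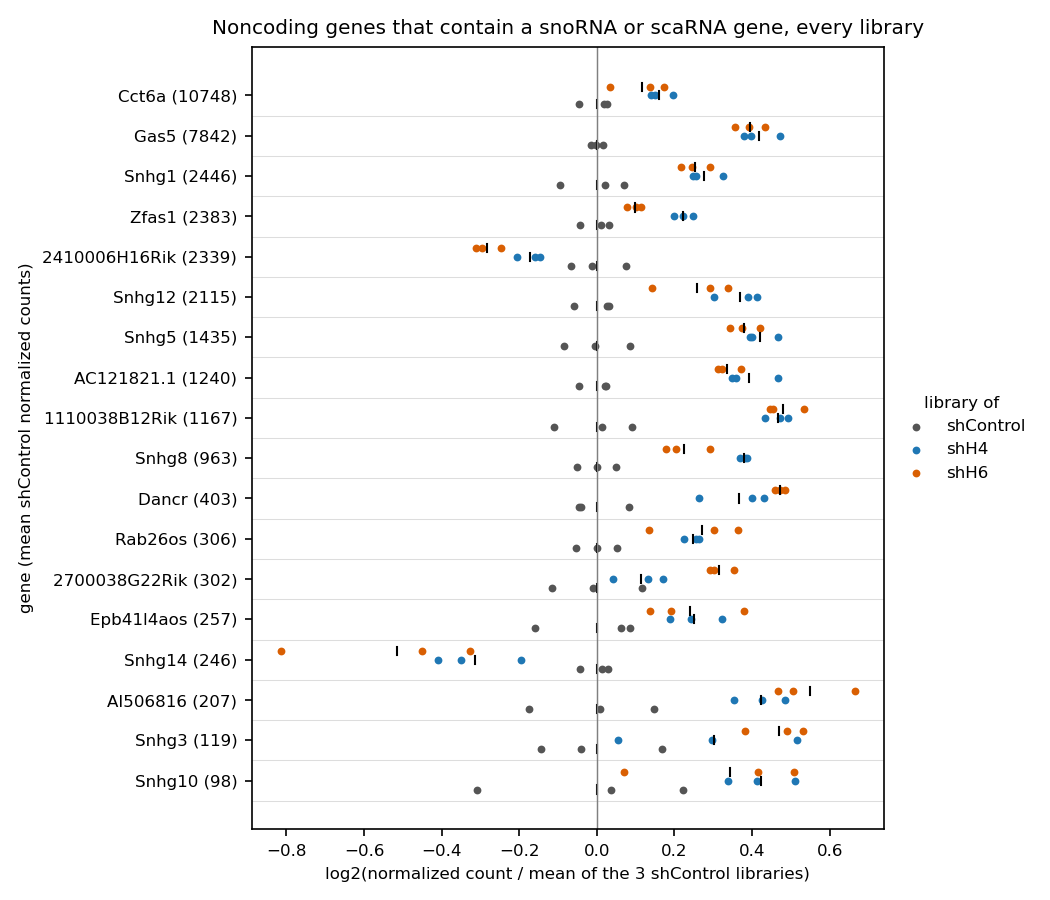
The 18 listed noncoding genes that contain a snoRNA or scaRNA gene, with each library's level relative to the shControl mean (horizontal axis, log2 ratio of normalized counts) and the mean shControl normalized count in brackets. Points are libraries and black ticks are group means. In 16 genes both knockdown means lie to the right of shControl, and in Snhg14 and 2410006H16Rik they lie to the left.

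Protein-coding hosts were divided by the kind of protein. Of 127 listed protein-coding genes with a snoRNA or scaRNA gene inside, 72 were higher and 55 lower (background 51.2% higher). Of the 24 with ribosomal protein symbols 22 were lower, with medians of -0.15 and -0.19, and of the other 103, 70 were higher, with medians of 0.18 and 0.16. This split was not among the planned comparisons. Ribosomal protein genes without a snoRNA gene inside were not counted beside them, so whether the fall is particular to hosts was not tested.

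Transcripts of ribosomal protein genes and of many snoRNA hosts begin in a run of pyrimidines, the terminal oligopyrimidine motif through which their translation is controlled. A run of 8 or more C or T bases between 10 bases before and 20 bases after the start was found in 5 of the 16 noncoding snoRNA hosts whose RefSeq promoters were used here (31.2%), in 24 of 61 ribosomal protein genes (39.3%) and in 13.0% of 27025 genes. The starts of these 5 hosts and both annotated starts of Gas5 are shown as 40-base windows from RefSeq (GRCm38.p6), on the gene's strand, with the 20 bases after the annotated start in capitals.
Snhg1: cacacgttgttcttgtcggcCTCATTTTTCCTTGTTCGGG
Snhg12: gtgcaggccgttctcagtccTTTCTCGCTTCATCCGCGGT
2410006H16Rik: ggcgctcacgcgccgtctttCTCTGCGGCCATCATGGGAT
Rab26os: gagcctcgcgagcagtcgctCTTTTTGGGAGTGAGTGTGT
Snhg10: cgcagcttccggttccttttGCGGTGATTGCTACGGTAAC
Gas5, first start: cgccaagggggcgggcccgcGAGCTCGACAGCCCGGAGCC
Gas5, other start: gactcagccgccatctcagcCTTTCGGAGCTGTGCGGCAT
The longest run was 9 bases in Snhg1, Snhg12 and 2410006H16Rik and 8 in Rab26os and Snhg10. Of these 5 hosts 2410006H16Rik was lower than shControl. Both starts of Gas5, with runs of 3 and 6, fell short of that length. These letters describe the window only.

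A snoRNA and the transcript around it could be compared where both were listed. There were 11 such pairs on the same strand, from 9 small RNAs, and in 9 of the 11 the small RNA was lower while the gene around it was higher. Snora73a and Snora73b lie within Snhg3 and the adjoining Rcc1, a chromatin-bound exchange factor, whose mRNA rose from 1732 ± 24.9 to 2115 ± 74.2 in shH4 and 2323 ± 37.1 in shH6 (log2 0.29 and 0.42). Gm22009 was lower and Kpna4 higher (0.27 and 0.21), Gm25835 lower and Eif4a1 higher (0.12 and 0.11), and Scarna10 lower and Ncapd2, a condensin subunit gene, higher (0.16 and 0.24). Gm23262 was lower and Eif4g2 higher (0.32 and 0.40), and Snora74a was lower (-0.43 and -0.28) and AC121821.1 higher. The pairs that went the same way were Gm26448 with Rpsa (-0.18 and -0.13) and Gm25791 with Taf1d. These pairs share host genes and are not independent.

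Genes of the snoRNA particle and of RNA decay were counted from lists of known members, which were set with earlier results of these data known. Of 22 snoRNP protein and assembly genes 11 were listed, and 10 of these rose in both hairpins (background 47.2% of all listed genes called higher in both). They include Dkc1, the pseudouridine synthase (2946 ± 50.8, 3641 ± 142 and 3459 ± 108), Fbl, the methyltransferase (log2 0.25 and 0.22), Nop58 (0.27 and 0.28) and Gar1 (0.39 in both). Nop10, another core protein of H/ACA particles, fell (-0.11 and -0.23). Of 37 symbols for proteins of other small RNA particles, 36 of them GENCODE M21 names, 13 were listed. Of these 12 were higher (background 51.2%), 11 of them called in both (background 47.2%). Among them were the RNase P subunits Rpp30 (0.30 and 0.23) and Pop5 (0.21 and 0.31) and Hexim1, a protein of the 7SK particle (0.47 and 0.35). Mvp, the major vault protein, fell (-0.22 and -0.17).

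For nuclear RNA processing and turnover 42 symbols were searched, some of them second names of the same gene, and 38 are GENCODE M21 names. Of these 23 were listed and 21 were higher (background 51.2%), 20 called in both (background 47.2%). Ints7, an Integrator subunit, rose most, from 1560 ± 44.7 to 3243 ± 89.2 and 3290 ± 23.3 (log2 1.06 and 1.08). Ncbp2, of the nuclear cap-binding complex (0.62 and 0.56), Srrt (0.45 and 0.52), Exosc8 (0.41 and 0.47) and the exosome nuclease Dis3 (0.37 and 0.41) rose too. Ints11, the Integrator endonuclease, fell (-0.52 and -0.31), as did Zcchc7 (-0.21 and -0.16). Of 21 genes for nonsense-mediated decay 12 were listed, all higher (background 51.2%) and 11 called in both (background 47.2%). Upf1, the central helicase, rose from 1238 ± 100 to 1687 ± 51.8 and 1716 ± 124, and Smg5 from 1567 ± 51.4 to 2286 ± 148 and 2385 ± 66.3, and Smg6 passed only in shH6 (0.08, limma adjusted p = 0.129 in shH4, and 0.21). Whether the hairpins differed for Smg6 is not shown by that.

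Malat1, the nuclear speckle transcript and by normalized count the most abundant of the 208 noncoding genes, was at 124640, 132490 and 124340 in shControl. It was at 93466, 88541 and 102890 in shH4 and at 100870, 92112 and 97625 in shH6. The knockdown libraries all lay below shControl, with log2 fold changes of -0.42 (SE 0.05, limma adjusted p = 5.78e-06) and -0.39 (SE 0.05, adjusted p = 1.15e-05). Of the normalized counts of these 208 genes, Malat1 made up 30.1% to 33.1% in shControl and 24.7% to 29.03% in the knockdown libraries. The 43 listed genes of unknown type are outside this comparison, and the highest of them had a mean of 1.14e+06 normalized counts over all libraries. They held 11.3% to 13.3% of the summed normalized counts of a library, against 2.60% to 3.03% for the 208 genes. Neat1, the scaffold of paraspeckles, which lies near Malat1 on chromosome 19, was at 4694, 5178 and 5032 in shControl, 3034, 3159 and 3641 in shH4, and 3716, 3323 and 4388 in shH6, also without overlap (-0.60 and -0.39). Over both genes the shH6 against shH4 difference did not pass.

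Genes for proteins of speckles and paraspeckles went the opposite way. Of 24 such genes 20 were listed, and all 20 rose in both hairpins (background 47.2%). The paraspeckle proteins Sfpq (3910 ± 255, 5281 ± 61.6 and 5471 ± 474) and Nono (log2 0.11 and 0.08) and the speckle proteins Son (0.26 and 0.30) and Srrm2 (0.31 and 0.38) were among them.

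Firre, an X-linked nuclear transcript that contacts several chromosomes, was at 1179, 1164 and 1171 in shControl, at 863, 900.1 and 930.1 in shH4, and at 879.7, 859 and 889 in shH6, well apart (log2 -0.38 and -0.42). Trp53cor1, known as lincRNA-p21, was at 56.9, 41.8 and 68.7 in shControl, at 27.6, 23.6 and 28.4 in shH4, and at 33.3, 26.6 and 24.9 in shH6 (log2 -1.02 and -0.94). Both were below shControl in all 6 knockdown libraries. Cdkn1a, the p53 target and cell cycle inhibitor that neighbours Trp53cor1 on chromosome 17, fell from 1495 ± 68.6 to 908 ± 8.98 and 932 ± 57.4. The TEC gene AC167363.2, opposite Cdkn1a, fell with it, from 58.7 ± 8.80 to 29.8 ± 3.17 and 33.02 ± 7.61.

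Other known long noncoding RNAs were higher. Tug1 was at 3448, 3343 and 3546 in shControl, 4156, 3917 and 4000.4 in shH4, and 3784, 3663 and 3606 in shH6 (log2 0.22 and 0.10). Ftx, which lies at the X inactivation centre, was at 368 ± 18.2, 412 ± 26.3 and 456 ± 11.4 (0.16 and 0.31). Dleu2, host of the miR-15a and miR-16 microRNAs, was at 1278 ± 47.3, 1415 ± 66.6 and 1400.3 ± 32.6 (0.15 and 0.13). Mirt1 passed in shH4 (0.28) and not in shH6 (0.17, limma adjusted p = 0.0761), where it passed without shH6 replicate 3 (0.24, adjusted p = 0.0193). Several of these calls rested on the scaling or on 1 library. With upper-quartile scaling Tug1 in shH6 (0.04, adjusted p = 0.252), Ftx in shH4 (0.10, adjusted p = 0.167) and Dleu2 in both (0.08, adjusted p = 0.0986 and 0.114) no longer passed. Calls were also lost for Tug1 in shH6 without shControl replicate 2 (0.08) or shH6 replicate 1 (0.08), for Ftx in shH4 without shControl replicate 3 (0.12), shH4 replicate 1 (0.12) or 3 (0.15), and for Dleu2 in shH6 without shControl replicate 3 (0.11) or shH6 replicate 1 (0.12), with adjusted p from 0.0522 to 0.138.

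**Figure D4:**
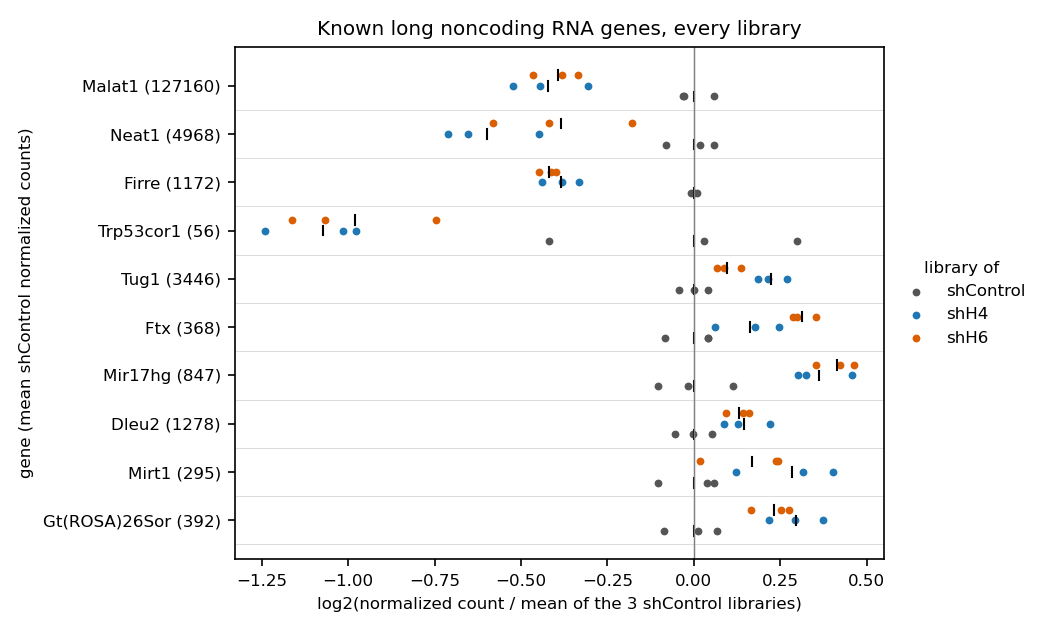
Known long noncoding RNA genes, with each library's level relative to the shControl mean (horizontal axis, log2 ratio of normalized counts) and the mean shControl normalized count in brackets; Gt(ROSA)26Sor was added after its values were seen. Points are libraries and black ticks are group means. Malat1, Neat1, Firre and Trp53cor1 lie to the left in all knockdown libraries, and the other 6 genes have higher means in both hairpins.

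Among long genes called in both hairpins with all 6 knockdown libraries above shControl, the 8 that rose most by the smaller of both hairpins' values were Gm16201, Gm16133, Zfp335os, Gm47015, Gm43860, Gm43533, Gm44185 and Gm48796. All but Gm47015 were below 40 normalized counts in every shControl library. Gm47015, a lincRNA on chromosome 10 with no role known here, was at 729.8, 728 and 630.3 in shControl, at 1384, 1287 and 1398 in shH4, and at 2235, 2180.4 and 1983 in shH6. Its 3 groups were fully apart, with log2 fold changes of 0.96 (SE 0.06, limma adjusted p = 2.73e-09) and 1.62 (SE 0.06, adjusted p = 7.93e-12). Gm16201, antisense to the metalloprotease gene Adam8, was at 29.9, 22.3 and 23.2 in shControl, 55.8, 84.3 and 74.5 in shH4, and 45.3, 57.6 and 58.2 in shH6 (log2 1.46 and 1.07), while Adam8 had 0.26 and 0.22. Gm43533 lost its call without shControl replicate 1 (0.75, adjusted p = 0.0516) or shH4 replicate 1 (0.77, adjusted p = 0.0511) in shH4 and without shH6 replicate 3 in shH6 (0.68, adjusted p = 0.059), and Gm48796 without shH4 replicate 3 (0.63, adjusted p = 0.0509).

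By the same rule, the 8 that fell most were Gm11714, B230206L02Rik, Gm37795, Gm38140, Gm32219, Gm20522, Gm15850 and Gm13067. Gm37795, a TEC gene, was the most abundant, at 165, 173 and 203 in shControl, 57.2, 90.1 and 79.2 in shH4, and 79.6, 83.9 and 81.1 in shH6 (log2 -1.26 and -1.13). Gm11714, opposite the lipid transfer protein gene Pitpnc1, was at 19.1, 16.6 and 24.4 in shControl, 6.90, 1.10 and 8.80 in shH4, and 12.2, 8.39 and 2.49 in shH6. Its libraries did not overlap, but these are counts of a few reads, and its shH6 call (-1.46) was lost without shControl replicate 3 (-1.31, limma adjusted p = 0.0594) or shH6 replicate 3 (-0.90, adjusted p = 0.102). Its shH4 value moved from -1.93 to -1.24 without shH4 replicate 2 (limma adjusted p = 0.0228). Gm15850 starts within 2000 bases of the kinesin gene Kif21b, on the other strand, and fell from 40.8 ± 1.67 to 19.3 ± 3.89 and 15.5 ± 4.77, while Kif21b had -0.69 and -0.77.

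Long noncoding genes mostly lay on the same side of shControl as a listed gene that overlaps them. Libraries were made with a strand-specific kit, but whether the counting used strand is not stated, so reads of 2 overlapping genes cannot be told apart with certainty. Of 40 pairs of a long gene and a listed gene on the opposite strand 36 went the same way, and all 17 such pairs of antisense genes did. They include Zfp335os with Zfp335 (log2 1.08 and 1.04 beside 0.17 and 0.20) and Gm16133 with the DNA repair gene Fancc (1.10 and 1.05 beside 0.48 and 0.35). The 4 pairs that went opposite ways were Cct6a with Psph, Gm12992 with Srsf4, and Gm17494 with both Dnttip2 and Gclm.

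TEC genes were mostly found inside a gene of the same strand. Of 19 TEC genes that overlap a listed gene on their own strand 18 went the same way as it, and 17 of the 19 lie wholly within its introns. Gm42600 (0.74 and 0.42) and Gm43588 (0.63 and 0.55) lie in introns of Alms1, which had 0.44 and 0.48. Gm42793, which shares exon bases with the osteopontin gene Spp1, fell by 0.90 and 0.75 on the log2 scale, and Spp1 fell from 18760 ± 902 to 10136 ± 241 and 12516 ± 904. The exception was Tiaf2, higher by 0.59 and 0.65 inside Ank, which had -0.35 and -0.11. Intronic reads of the surrounding transcript would be counted in such genes, and their part was not tested. Of all 29 pairs of a long gene and a listed gene on the same strand 23 went the same way, but of the 9 pairs of processed_transcript genes only 4 did. The other 5 were AC121821.1 with Snora74a, Snhg3 with Snora73a and Snora73b, and Gm36995 (0.37 and 0.44) with Ccdc22 (-0.16 and -0.15) and Ppp1r3f (-0.38 and -0.35).

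Some long genes have a divergent start, within 2000 bases of the start of a listed gene on the other strand. Of 15 such pairs 11 went the same way. Snhg1 was higher while Slc3a2, an amino acid transporter subunit gene, fell from 3480.4 ± 79.9 to 2539 ± 93.9 and 2593 ± 48.3. Gm16576 was higher (0.50 and 0.77) beside the nuclear envelope gene Sun2 (-0.11 and -0.17), and Gm26559 (-0.81 and -0.51) and Gm5113 (-0.43 and -0.46) were lower beside Map1b (0.13 and 0.15) and Zfp146 (0.29 and 0.30). The one small RNA gene with such a start, Rpph1, was lower beside Parp2 (0.13 and 0.27).

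**Figure D5:**
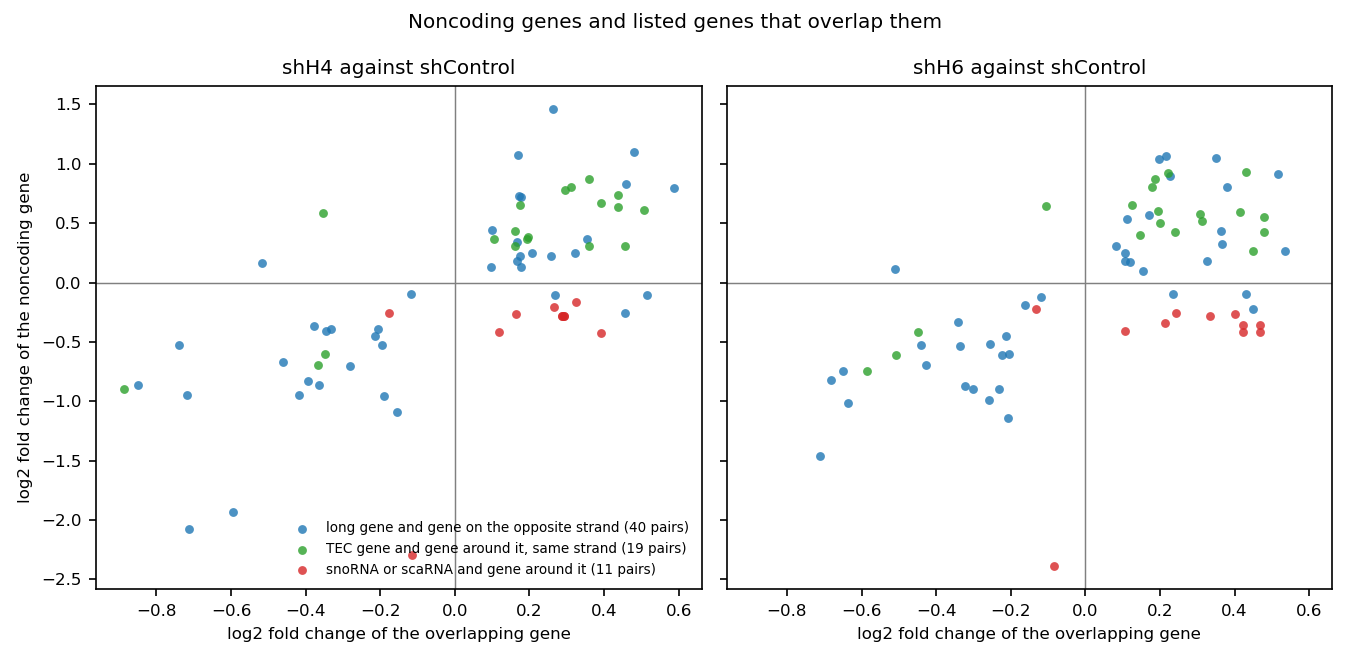
Log2 fold change of noncoding genes (vertical axis) against that of a listed gene that overlaps them (horizontal axis), for shH4 on the left and shH6 on the right. Each point is a pair: a long gene and a gene on the opposite strand (blue, 40 pairs), a TEC gene and a gene of its own strand around it (green, 19 pairs), or a snoRNA or scaRNA and the gene around it (red, 11 pairs). Blue and green points lie mostly in the lower left and upper right, and 9 of the 11 red points lie at the lower right.

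Genes whose hairpins lay on opposite sides of shControl are not in the table, which limits the differences that shH6 and shH4 can show. Of the 208 noncoding genes 12 passed (background 8.26%), 5.77% of them, 6 higher (background 3.89%) and 6 lower in shH6 (background 4.38%). Gm47015 differed most clearly, a log2 difference of 0.65 (SE 0.06, limma adjusted p = 6.95e-06). Gm20186, which starts opposite the RNA-binding protein gene Lsm8, was at 382, 398 and 321 in shControl, 585, 531 and 616 in shH4, and 424, 383 and 445 in shH6, so that only shH4 stood clear of shControl (difference -0.47, adjusted p = 0.00251). Gm38056, a TEC gene, was at 2155 ± 43.7, 1647 ± 22.5 and 1895 ± 87.0 (difference 0.20, adjusted p = 0.00559). These 3 kept their call in each of the 16 alternative fits, while each of the other 9 lost it in at least 1. With upper-quartile or column-total scaling 9 genes passed, 6 higher and 3 lower, and over all 5301 genes 425 and 454 passed in place of 438. Of the small RNAs only Gm22009 passed (difference -0.13, adjusted p = 0.0352), and of the hosts only Zfas1 (-0.12, adjusted p = 0.0412).

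RESF1 is studied for binding near guanine-rich sequences that can fold into G-quadruplexes, so runs of G were counted in the longest transcript of each gene. At least 4 runs of GGG with 1 to 7 bases between them were found in 12.8% of the 94 higher and 18.7% of the 91 lower long noncoding genes. Over all listed genes with a transcript the shares were 23.2% of the higher and 20.4% of the lower genes. Quadruplexes built from runs of GG, with fewer guanine layers, are outside this search. So are runs of G on the opposite DNA strand and in introns, since only the transcript sequence was read. No small RNA held the motif, and only 2.63% of the TEC genes did. Noncoding genes have shorter transcripts, with a median of 2557 bases for the higher and 2049 for the lower ones, against 3628 and 2815 over all genes.

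Some long genes may not be noncoding. RefSeq holds 122 of the 208 symbols, and calls 6 of the long ones protein-coding (Cct6a, Ifi30, Ptpmt1, Zswim6, Lsmem2 and Tmem250-ps) and Gm10076 a pseudogene. Gm10076, with the highest level per kilobase of any long gene, fell from 9635 ± 364 to 8315 ± 350.1 and 7613 ± 458, and Ifi30, a lysosomal thiol reductase, from 1295 ± 30.4 to 1143 ± 41.2 and 1177 ± 42.1.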

How the data were processed

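Total RNA from 9 dishes of 6DT1 cells was sequenced with a stranded total RNA kit. Per the submitters' notes the authors used STAR 2.7.8a, Partek and DESeq2 with genome build mm39. The deposited table holds a normalized signal per gene (normalized counts), and 74.2% to 78.2% of its low values per library were whole multiples of 1 read within 0.05 read. Because the values were not counts, log2(value + 1) was fitted with limma 3.58.1 (R 4.3.3), with a mean per group over all 9 libraries and an intensity trend, and p-values were adjusted by Benjamini-Hochberg over all 5301 genes at a threshold of 0.05. SDs are over 3 libraries. Depth estimates cover the listed genes only, molecular identifiers are not stated, and no 2 libraries of a group agreed within sampling noise.

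Gene types, lengths and neighbours came from GENCODE M21 by Ensembl identifier (5258 matched). That annotation is on GRCm38, so no coordinates are given. The members and lists were chosen with earlier results of these data known. Named genes were all small RNAs, Snhg and other named hosts, 48 preset symbols where listed, the 8 largest rises and 8 largest falls of long genes called in both hairpins with groups apart, and all genes called between hairpins, 67 in all. The fit was tested on simulated data in which 200 genes were changed by the same amount in both hairpins. Of these 91% were called in shH4 and 93% in shH6, with 8 and 17 false calls. No gene was made to differ between the hairpins, so the power of that comparison was not measured. Alternatives were other pseudocounts (0.5, 5), a mean of at least 10, upper-quartile and column-total scaling, fits of 2 groups, a replicate block and omission of each library.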

Additional observations from a re-analysis of the deposited data

Results flagged for a closer look

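Between the hairpins, 12 noncoding genes differed by the limma test of shH6 against shH4 itself. On the log2 scale (shH6 minus shH4), Gm16170 differed by 1.34, A030001D20Rik by 0.74, Gm47015 by 0.65, 4930556M19Rik by 0.48, Zswim6 by 0.37 and Gm38056 by 0.20. Those lower in shH6 were Gm26737 at -0.77, Gm20186 at -0.47, F730043M19Rik at -0.37, Gm22009 at -0.13, Tug1 at -0.13 and Zfas1 at -0.12. The shH4 and shH6 libraries did not overlap in 11 of the 12 (24.8% of all listed genes did not overlap), the exception being Gm16170, at 9.86, 3.35 and 3.04 in shH4 and 9.12, 13.5 and 19.95 in shH6. Because the 12 were picked by a test on these same libraries, the lack of overlap adds no support. The adjusted p was 6.95e-06 for Gm47015, 0.00251 for Gm20186 and 0.00559 for Gm38056, and from 0.0195 to 0.0431 for the other 9. Of the 12, 7 had a listed gene that overlaps them or starts beside them. In 6 it lay on the same side of shControl as the noncoding gene, among them Mamstr beside A030001D20Rik (log2 -0.83 in shH4 and -0.69 in shH6), Trim7 opposite Gm16170 (-0.71 and -0.65) and Lsm8 beside Gm20186 (0.23 and 0.18), and in 1, Kpna4 around Gm22009 (0.27 and 0.21), it lay on the other side. Groups of 3 libraries were not tested for outlying libraries.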

How the results depend on the processing

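No value of a named gene changed sign in any of the 16 alternatives, and of 2336 values 2168 stayed on the same side of the threshold, 151 lost and 17 gained a call. Counts of noncoding genes called against shControl stayed within 1.5 times of those reported. Between the hairpins 12 fell to 7 in a fit of the 2 groups alone and ranged from 4 to 11 when a library was left out: 7 without shControl replicate 3, 4, 5 and 6 without shH4 replicates 1, 2 and 3, and 7, 7 and 5 without shH6 replicates 1, 2 and 3. Over all genes 438 fell to 378 in the fit of the 2 groups and ranged from 287 to 422 when a library was left out. Replicate numbers did not pair the libraries (r from -0.155 to 0.108 between same-numbered deviations), and a replicate block gave 197 calls in shH4, 196 in shH6, 208 for the mean of both and 9 between hairpins (405 in place of 438 over all genes).

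With upper-quartile scaling the median of all genes moved from 0.10 and 0.09 to 0.03 and 0.04, that of the long genes to 0.0665 in shH4 and 0.0468 in shH6, and that of the 12 hosts, Mir17hg included, to 0.30 and 0.25. With column-total scaling the long gene median in shH4 was 0.15 and the median of those 12 in shH6 0.34. When a library was left out, the small RNA median ranged from -0.39 to -0.27 in shH4 and from -0.47 to -0.27 in shH6, and that of the 12 hosts in shH6 from 0.27 to 0.36. Small RNAs called lower ranged from 16 to 22 in shH4 and from 18 to 22 in shH6. Over all genes the number called in either direction ranged from 4616 to 5143 in shH4 and from 4684 to 5100 in shH6. Tests that need counts were left out, since the table holds none. Of the 208 genes, 104 lay below 100 normalized counts, where few reads limit precision.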
